A study of Mus musculus with 48 samples.

Results

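The 40 genes described here are interferon-stimulated genes and interferon-inducible GTPases of the mouse, taken as a fixed list of symbols and matched by Ensembl identifier to 40 of the 56748 rows in each count file. The list was chosen with earlier results of these data known. All 40 passed the filter on low counts in every tissue. The bulk RNA-seq libraries came from male littermates with (hepAGT+/+, WT below) or without (hepAGT-/-, KO below) hepatocyte angiotensinogen, the precursor of the angiotensin peptides. Mice lived either in rooms kept at 20 to 22 °C (room temperature, RT) or under thermoneutral housing of 30 °C (TN). For 12 weeks every mouse, controls included, ate the Western diet TD.88137, which holds 0.2% cholesterol and 21% milk fat. Each of 3 tissues, namely liver, brown fat (brown adipose tissue, BAT) and the epididymal white fat pad (eWAT), gave 4 groups of 4 biological replicates, 48 libraries in all. Ages and the Cre line that removes the gene are not given in the sources used here. The question set by the title is how the hepatocyte deletion bears on fat mass and liver fat in mice kept at thermoneutrality.

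Interferons are cytokines that act through paired receptors and JAK kinases. Type I interferon assembles a complex with STAT2 and IRF9 that binds the interferon-stimulated response element (ISRE), and type II interferon acts through the gamma-activated site (GAS). The genes they turn on include sensors of foreign RNA and DNA, antiviral effectors such as the IFIT, OAS and MX proteins, the ubiquitin-like modifier ISG15, and 2 families of large GTPases that act on the membranes around intracellular pathogens: the guanylate-binding proteins (GBPs, 9 members here) and the immunity-related GTPases (IRGs, 5 members here). Kupffer cells, other macrophages and endothelial cells express many of these genes in liver and fat.

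Promoter sequences are printed first for 8 members that the results return to, with the 2 kinds of element in view. RefSeq promoters (GRCm38.p6) matched 26 of the 40 members with 29 windows, and the 250 bases before each start were searched on both strands. The ISRE core was read as GAAANNGAAA or its complement TTTCNNTTTC, and the GAS core as TTCNNNGAA, which is its own complement. An ISRE core lay before the start of 15 members, in 51.7% of their windows against 2.98% of all 32851 windows. A GAS core lay before 7 members (Bst2, Gbp5, Gbp7, Ifit2, Igtp, Irgm2 and Oas1a), in 24.1% of their windows against 7.02% of all. Capitals mark both kinds of core, which can overlap. Coordinates are GRCm38.p6 and each run is 80 bases on the gene's strand, 5′ to 3′, upstream of its start. Isg15, Ifit1, Ifit3 and Gbp2 show ISRE cores only. Igtp, Irgm2, Bst2 and Gbp7 also show a GAS core.
Isg15, chr4:156200840-156200919, minus strand: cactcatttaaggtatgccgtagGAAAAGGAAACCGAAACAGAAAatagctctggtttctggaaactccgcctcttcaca
Ifit1, chr19:34640769-34640848, plus strand: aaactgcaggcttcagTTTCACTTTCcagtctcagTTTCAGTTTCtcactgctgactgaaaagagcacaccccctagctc
Ifit3, chr19:34583372-34583451, plus strand: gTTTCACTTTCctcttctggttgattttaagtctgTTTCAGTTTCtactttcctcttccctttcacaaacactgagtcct
Gbp2, chr3:142620569-142620648, plus strand: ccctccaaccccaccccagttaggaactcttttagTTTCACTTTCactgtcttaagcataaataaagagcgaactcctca
Igtp, chr11:58199476-58199555, plus strand: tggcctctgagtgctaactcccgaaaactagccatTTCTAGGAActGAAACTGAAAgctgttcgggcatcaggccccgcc
Irgm2, chr11:58214878-58214957, plus strand: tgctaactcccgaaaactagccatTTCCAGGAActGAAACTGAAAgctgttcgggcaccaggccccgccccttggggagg
Bst2, chr8:71537552-71537631, minus strand: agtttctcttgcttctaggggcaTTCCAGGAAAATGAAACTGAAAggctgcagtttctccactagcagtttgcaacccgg
Gbp7, chr3:142530248-142530327, plus strand: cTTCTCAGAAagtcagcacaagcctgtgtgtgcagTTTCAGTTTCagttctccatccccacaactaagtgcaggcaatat

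The Isg15 run holds 3 overlapping ISRE cores, and in Bst2 the GAS core overlaps an ISRE core. Igtp and Irgm2 carry a GAS core followed closely by an ISRE core in the same arrangement. The windows of Cmpk2, Herc6, Ifi44, Ifi47, Ifih1, Irf7, Irf9, Oasl1, Oasl2 and Xaf1 held neither set of letters. Families sit in clusters: 4 Gbp genes are on chromosome 3 and 5 on chromosome 5, all 5 OAS genes are on chromosome 5, the 3 IFIT genes are on chromosome 19, and both Mx genes are on chromosome 16. Members of a family share sequence, so counts of the Gbp, IRG, OAS, IFIT and Mx genes may be partly split among close copies. The RefSeq annotation lists Mx1, Mx2 and Gbp11 as transcribed pseudogenes, so their counts are of transcripts and no working protein is implied.

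Levels below are counts-per-million values (CPM) after scaling of library sizes by edgeR's TMM method, and changes are log2 fold changes ± SE from edgeR's quasi-likelihood test, with p-values adjusted by the Benjamini-Hochberg method over all genes tested in that tissue. A gene is called at an adjusted p under 0.05. Library totals ran from 23.7 to 43.7 M counts. Liver Agt, the deleted gene, was at 276 to 434 CPM in WT RT and 143 to 202 CPM in KO RT, and at 309 to 504 CPM in WT TN and 125 to 207 CPM in KO TN. It fell by 1.14 ± 0.18 at RT (edgeR adjusted p = 0.0096) and by 1.29 ± 0.18 at TN (edgeR adjusted p = 0.00113), with no overlap between genotypes. A few libraries stood apart over the 40 genes. In liver, KO TN replicate 5 was the highest of its group for 35 of 40 members (27.1% of all tested genes). In BAT, WT TN replicate 24 was the lowest of its group for 39 members (38.0% of all tested genes), and in eWAT, KO RT replicate 16 was the highest for 33 (29.5%). Comparisons within a tissue share groups, so they are not independent of each other. In bulk tissue, fewer cells of a type and less RNA per cell cannot be told apart.

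**Figure D1:**
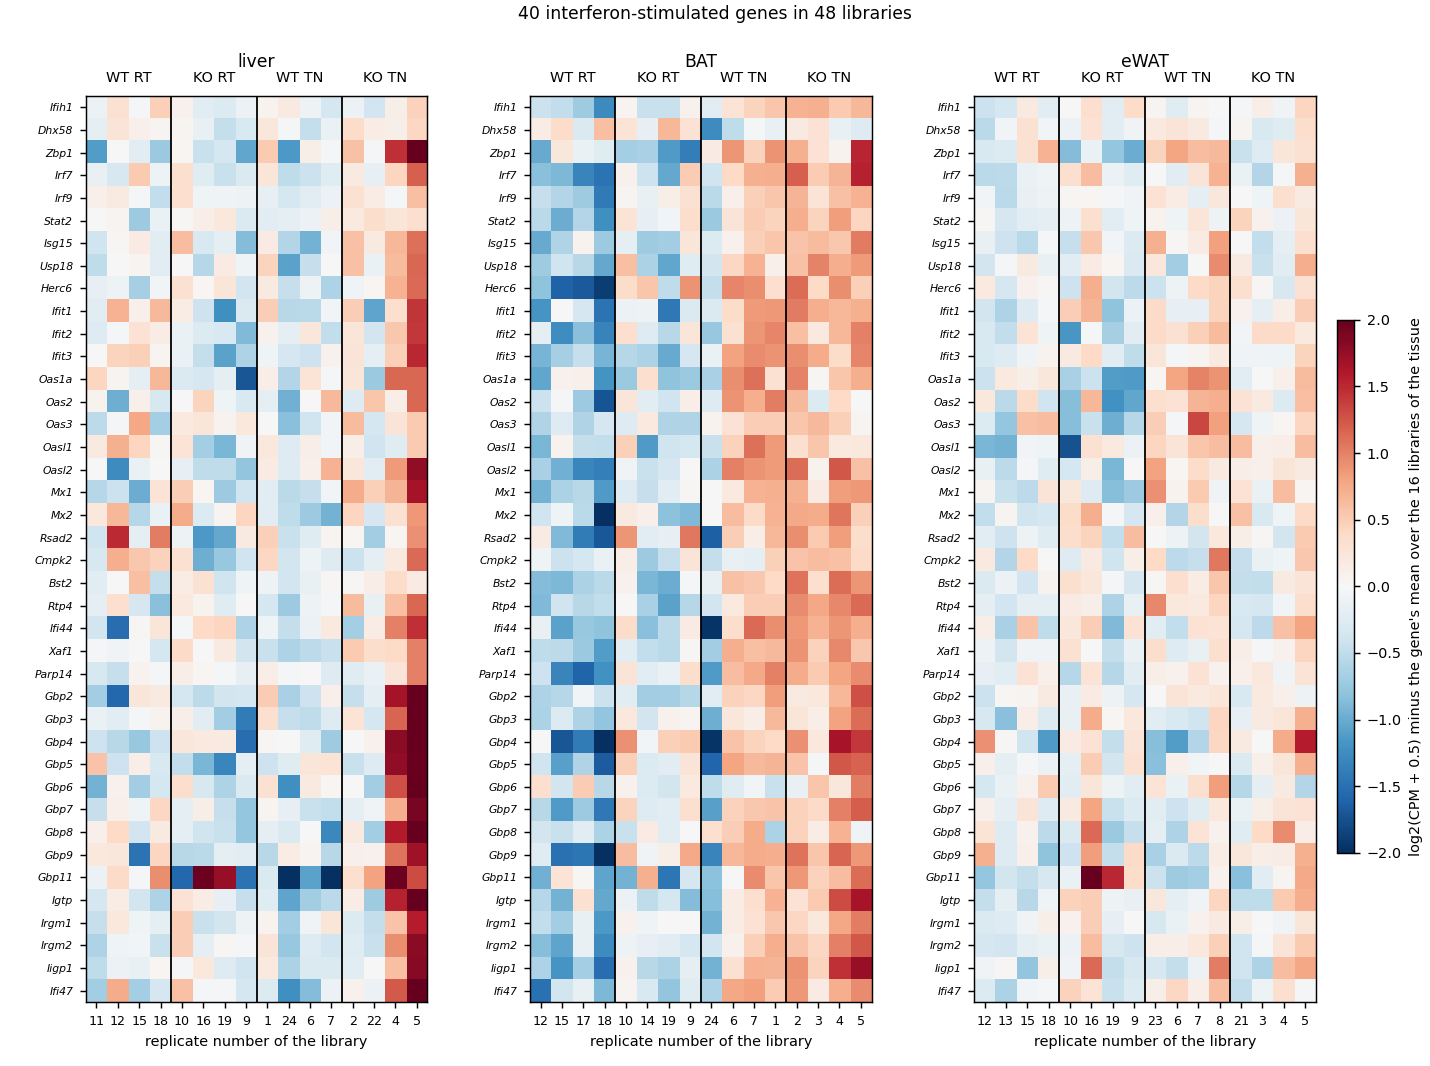
Each row is 1 of the 40 genes and each column 1 of the 48 libraries, grouped by tissue, genotype and housing; colour is log2(CPM + 0.5) minus that gene's mean over the 16 libraries of its tissue, capped at 2 in both directions. BAT columns are mostly lower at RT and higher at TN, with WT TN replicate 24 low, and in liver the KO TN replicates 4 and 5 are high.

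Brown fat held most of the housing differences. In WT mice, 24 of the 40 members rose at TN and none fell, against 32.5% of all 18032 genes called in that comparison (15.9% higher, 16.7% lower). In KO mice, 16 members rose and none fell, against 15.2% of all genes (6.64% higher, 8.52% lower). The members' median log2 change was 1.23 in WT and 1.07 in KO, beside medians of 0.11 and 0.04 over all genes tested. Estimates were above 0 for 38 members in WT (55.2% of all genes) and 39 in KO (52.9%). Both comparisons called 13 members, which is 54.2% of the WT calls and 81.3% of the KO calls, while 11 were called in WT alone and 3 in KO alone. No member passed the test of the difference between these 2 housing effects (edgeR, 0 called of 40 and 0.0% of all genes, 2 at an unadjusted p under 0.05 beside 10.2% of all genes, DESeq2 0). Its estimate was above 0 for 14 members (49.2% of all genes). Groups did not overlap for 11 members in WT (12.9% of all genes in the higher direction) and for 21 in KO (9.54%). Per-library BAT values are given in the order of replicates 12, 15, 17 and 18 (WT RT), 10, 14, 19 and 9 (KO RT), 24, 6, 7 and 1 (WT TN) and 2, 3, 4 and 5 (KO TN).

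The sensors differed from each other. Ifih1 encodes MDA5, a cytosolic sensor of long double-stranded RNA. It was at 9.08, 8.64, 7.40 and 4.85 CPM in WT RT and at 10.6, 15.1, 17.0 and 18.4 CPM in WT TN, and rose by 1.02 ± 0.21 (edgeR adjusted p = 0.00139). In KO mice it was at 12.9, 8.96, 8.96 and 13.2 CPM at RT and at 20.5, 20.7, 18.0 and 20.0 CPM at TN, and rose by 0.85 ± 0.21 (edgeR adjusted p = 0.0105). Neither pair of groups overlapped. Zbp1, a sensor of Z-form nucleic acids that can start necroptosis, rose in KO by 2.49 ± 0.53 (edgeR adjusted p = 0.00361) from 0.204 to 0.661 CPM up to 1.42 to 4.76 CPM. In WT its change of 1.14 ± 0.50 was not called (edgeR adjusted p = 0.091). Dhx58, which encodes the MDA5 regulator LGP2, had estimates of −0.72 in WT and −0.28 in KO, neither called. Without WT RT replicate 17 or WT TN replicate 7 it was called lower in WT, the 1 lower call among the members under any alternative of that comparison.

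All 3 transcription factors rose in WT. Irf7, which drives the later wave of type I interferon production, was at 4.68, 4.49, 3.20 and 2.82 CPM in WT RT and 6.51, 11.7, 14.6 and 14.8 CPM in WT TN. It rose by 1.65 ± 0.34 (edgeR adjusted p = 0.00159), and every TN library was above every RT library. In KO, Irf7 was at 9.37, 6.46, 4.05 and 12.7 CPM at RT and 20.7, 12.7, 14.3 and 26.5 CPM at TN, touching at 12.7 CPM, and rose by 1.18 ± 0.34 (edgeR adjusted p = 0.023). Irf9 and Stat2, the DNA-binding and activating partners of the ISRE complex, rose in WT by 0.99 ± 0.23 (edgeR adjusted p = 0.00331) and 1.03 ± 0.23 (edgeR adjusted p = 0.00267). Replicate 24 overlapped the RT libraries for both, with 10.8 CPM of Irf9 and 12.5 CPM of Stat2. Their KO estimates of 0.49 and 0.51 were not called.

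ISG15 and its pathway rose together in WT. Isg15 was at 1.90, 2.65, 4.56 and 2.40 CPM in WT RT and 3.48, 4.59, 6.15 and 6.53 CPM in WT TN, an overlapping pair that rose by 0.85 ± 0.32 (edgeR adjusted p = 0.0472). In KO it was at 3.75, 2.42, 2.46 and 5.20 CPM at RT and 6.61, 6.92, 6.50 and 9.32 CPM at TN, and rose by 1.09 ± 0.32 (edgeR adjusted p = 0.0255) with no overlap. Usp18, the protease that takes ISG15 off proteins and dampens the type I receptor, rose by 1.07 ± 0.36 in WT and 1.10 ± 0.36 in KO. Herc6, the mouse ligase that attaches ISG15, was at 1.90, 0.871, 0.800 and 0.626 CPM in WT RT and 2.52, 7.72, 7.45 and 4.78 CPM in WT TN. It rose 5.30-fold (2.40 ± 0.42, edgeR adjusted p = 0.000365). In KO, where Herc6 was already at 4.91, 5.62, 2.46 and 7.27 CPM at RT, it was at 8.56, 5.05, 7.50 and 5.32 CPM at TN and was not called (0.38 ± 0.39, edgeR adjusted p = 0.597). The difference between those housing effects was −2.02 ± 0.57 and was not called either (edgeR adjusted p = 0.443).

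The IFIT proteins bind viral RNA that lacks the cap modifications of the host. Ifit3 had the smallest adjusted p of the 40 in WT. It was at 5.36, 6.50, 7.56 and 5.32 CPM in WT RT and 9.63, 18.9, 20.9 and 20.3 CPM in WT TN, and rose 2.82-fold (1.49 ± 0.24, edgeR adjusted p = 0.000159). In KO it went from 7.02, 6.68, 5.01 and 8.26 CPM to 20.7, 18.1, 13.8 and 21.3 CPM and rose 2.74-fold (1.45 ± 0.24, edgeR adjusted p = 0.000445). Its groups overlapped in neither genotype. Ifit1 was at 2.31, 5.90, 4.52 and 1.77 CPM in WT RT and 4.68, 7.66, 10.9 and 11.1 CPM in WT TN (1.24 ± 0.38, edgeR adjusted p = 0.0182). For KO, Ifit1 was at 5.38, 5.43, 1.86 and 4.69 CPM at RT and 12.5, 10.0, 9.54 and 9.85 CPM at TN (1.27 ± 0.38, edgeR adjusted p = 0.0289). Ifit1 overlapped in WT and not in KO. Ifit2 rose in WT (1.42 ± 0.36, edgeR adjusted p = 0.00659) and had an uncalled estimate of 0.69 in KO.

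The OAS proteins make the 2-5A messenger that activates RNase L. Oasl2, a relative with ubiquitin-like domains, was at 4.47, 3.52, 2.64 and 2.50 CPM in WT RT and 4.53, 15.2, 14.0 and 13.5 CPM in WT TN, and rose 3.59-fold (1.84 ± 0.34, edgeR adjusted p = 0.000503). In KO it went from 6.95, 5.25, 5.64 and 7.27 CPM to 16.3, 7.67, 17.8 and 11.2 CPM (1.08 ± 0.33, edgeR adjusted p = 0.0316). Neither pair overlapped, although WT TN replicate 24, at 4.53 CPM, stood next to the highest WT RT library at 4.47 CPM. Oas2 rose in WT (1.47 ± 0.41, edgeR adjusted p = 0.0108). Oas1a, Oas3 and Oasl1 were not called in either genotype, with WT estimates of 1.28, 2.91 and 1.44. Mx1, whose intact form is a dynamin-like GTPase that blocks influenza virus in the nucleus, was at 0.0678, 0.201, 0.240 and 0 CPM in WT RT and 0.600, 0.755, 1.27 and 1.28 CPM in WT TN. It rose 7.29-fold in that fit (2.87 ± 0.69, edgeR adjusted p = 0.00404), from a low level in every library. Mx1 in KO (1.49 ± 0.63) and Mx2 in both genotypes were not called, and in all 3 of these the groups did not overlap.

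Bst2 encodes tetherin, which holds budding virions at the cell surface. It was at 13.3, 13.0, 15.6 and 16.7 CPM in WT RT and 22.1, 37.2, 35.7 and 32.4 CPM in WT TN, and at 26.2, 12.8, 12.1 and 23.8 CPM in KO RT and 52.5, 31.2, 53.6 and 45.4 CPM in KO TN. The groups overlapped in neither genotype, and Bst2 rose by 1.12 ± 0.25 in WT (edgeR adjusted p = 0.00219) and 1.29 ± 0.25 in KO (edgeR adjusted p = 0.00187). Rtp4, a chaperone of receptors that also restricts flaviviruses, was at 3.93, 5.73, 5.08 and 5.32 CPM in WT RT and 5.79, 8.88, 11.0 and 11.1 CPM in WT TN (0.87 ± 0.24, edgeR adjusted p = 0.0108). In KO, Rtp4 went from 7.70, 4.74, 3.38 and 5.03 CPM to 15.2, 13.4, 15.5 and 17.5 CPM and rose 2.96-fold (1.56 ± 0.25, edgeR adjusted p = 0.000373). Neither pair overlapped for Rtp4. Xaf1, a partner and antagonist of the apoptosis inhibitor XIAP, rose in WT (1.18 ± 0.27) and in KO (1.07 ± 0.27). Parp14, an ADP-ribosyltransferase, rose in WT by 1.61 ± 0.37 (edgeR adjusted p = 0.00389), and Cmpk2, a mitochondrial nucleotide kinase, rose in KO by 0.71 ± 0.23 (edgeR adjusted p = 0.0436). Rsad2, which encodes viperin, and Ifi44 were not called: Rsad2 spanned 5.74 to 22.2 CPM in WT RT and 6.06 to 31.7 CPM in WT TN.

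**Figure D2:**
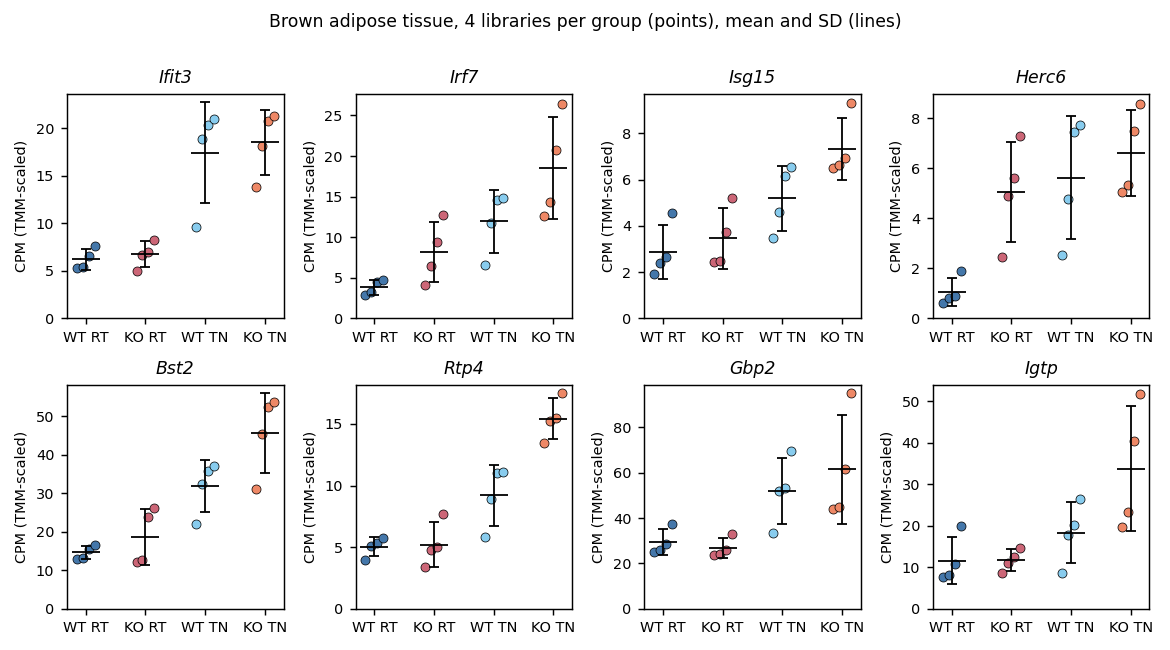
CPM (linear axis) of 8 members in the 16 BAT libraries; points are libraries, the bar is the group mean and the whisker its SD. Ifit3, Bst2 and Rtp4 separate TN from RT in both genotypes, and Herc6 is low in WT RT alone.

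Of the 9 GBPs, 4 rose in WT (Gbp2, Gbp5, Gbp7 and Gbp9) and 1 in KO (Gbp2), and none fell. Gbp2, the most abundant GBP per kilobase in BAT, was at 24.9, 26.0, 37.5 and 28.7 CPM in WT RT and 33.5, 53.3, 51.7 and 69.3 CPM in WT TN (0.83 ± 0.24, edgeR adjusted p = 0.0153). In KO it went from 33.2, 23.6, 24.0 and 26.0 CPM to 43.8, 45.1, 61.7 and 95.2 CPM (1.20 ± 0.25, edgeR adjusted p = 0.00318), with no overlap. Gbp9 showed the spread of the WT groups: it was at 22.4, 9.11, 9.48 and 3.65 CPM at RT and 10.3, 42.5, 44.9 and 44.3 CPM at TN, and rose by 1.66 ± 0.51 (edgeR adjusted p = 0.0229). Replicate 12 of WT RT was the high library and replicate 24 of WT TN the low one. Gbp4 had the same layout, with 23.1, 6.70, 8.44 and 4.01 CPM at RT and 5.52, 34.4, 31.6 and 30.7 CPM at TN, and was not called (1.27 ± 0.59, edgeR adjusted p = 0.119). In KO, Gbp4 was at 43.7, 22.2, 32.4 and 33.2 CPM at RT and 43.8, 26.9, 73.6 and 62.1 CPM at TN, which overlapped and was not called. Gbp6 stood against the rest of its family in WT, with an uncalled estimate of −0.39.

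Of the 5 IRGs, Irgm2, Iigp1 and Ifi47 rose in WT, and Igtp, Irgm2 and Iigp1 rose in KO. Iigp1, an effector GTPase that loads onto pathogen vacuoles, was at 15.4, 10.3, 14.8 and 8.03 CPM in WT RT and 12.2, 29.6, 38.9 and 38.6 CPM in WT TN (1.30 ± 0.36, edgeR adjusted p = 0.0125). In KO it went from 25.4, 16.0, 15.2 and 20.9 CPM to 45.2, 32.6, 66.8 and 81.4 CPM (1.54 ± 0.36, edgeR adjusted p = 0.00912). All KO TN libraries exceeded all KO RT libraries, and in WT only replicate 24 overlapped. Igtp, which encodes the regulatory protein IRGM3, was at 14.7, 11.1, 12.5 and 8.60 CPM in KO RT and 19.6, 23.3, 40.4 and 51.7 CPM in KO TN, with no overlap, and rose 2.87-fold (1.52 ± 0.39, edgeR adjusted p = 0.0151). In WT it was at 10.7, 8.07, 19.9 and 7.61 CPM at RT and 8.73, 17.8, 20.3 and 26.4 CPM at TN and was not called (0.66, edgeR adjusted p = 0.203). Irgm2 rose by 1.08 ± 0.26 in WT and 1.07 ± 0.26 in KO. Irgm1, the other regulatory member, had uncalled estimates of 0.70 and 0.65.

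Markers of several cell types differed with housing in BAT. Summed macrophage markers were at 40.9 to 143 CPM in WT RT and 173 to 326 CPM in WT TN, and at 52.7 to 62.8 CPM in KO RT and 140 to 196 CPM in KO TN. Endothelial markers were at 448, 220, 200 and 179 CPM in WT RT and 242, 627, 587 and 810 CPM in WT TN. These groups overlapped, as replicate 24 of WT TN, at 242 CPM, was below replicate 12 of WT RT, at 448 CPM. In KO the endothelial sums overlapped too, at 761, 406, 501 and 939 CPM at RT and 879, 600, 752 and 552 CPM at TN. T cell markers summed to 0.521 to 2.9 CPM at RT and 2.1 to 10.6 CPM at TN. Brown adipocyte markers summed to 6903 to 14384 CPM at RT and 1944 to 5918 CPM at TN. The plasmacytoid dendritic cell list summed to 54.4 to 73.8 CPM in WT RT and 121 to 142 CPM in WT TN without overlap, and to 79.4 to 109 CPM in KO RT and 102 to 199 CPM in KO TN. Of its 6 genes, the broadly expressed Tcf4 (54.2 to 72.9 CPM in WT RT) and the muscle gene Cox6a2 (up to 66.1 CPM in WT TN) carried nearly all of these sums, and its defining marker Siglech was at most 1.21 CPM in any BAT library. Every macrophage, endothelial and T cell marker was detected in each group, and their part in the members' changes was not tested. Skeletal muscle markers exceeded 1000 CPM in 5 BAT libraries (KO RT 14 and 19, WT TN 24 and 6, KO TN 2). Without those 5, 28 members were called in WT and 10 in KO, and without replicate 24 alone, 31 and 23. Leaving out KO RT replicate 19 alone gave 10 calls in KO. The shares of all genes called in these reduced fits are not given, so the counts are not results about the members alone.

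Herc6 was the one member called between genotypes in BAT. At RT, Herc6 was 4.77-fold higher in KO than in WT (2.25 ± 0.42, edgeR adjusted p = 0.0499) with no overlap between groups, against 0.0887% of all genes called (0.0555% higher, 0.0333% lower). Its adjusted p ranged up to 0.212 over 22 alternative analyses, and the call was lost in 16 of them. Over the 40 members, 36 estimates were above 0 (50.3% of all genes) with a median of 0.59, beside 0.00 for all genes. In 10 members every KO library exceeded every WT library, against 5.29% of all genes in that direction. These included Stat2, at 14.5, 10.5, 14.1 and 8.86 CPM in WT and 26.1, 19.1, 20.6 and 27.4 CPM in KO (0.95 ± 0.23, edgeR adjusted p = 0.0981), and Oasl2 (0.93 ± 0.33, edgeR adjusted p = 0.152). Without WT RT replicate 12, the highest WT RT library for Gbp4, Gbp9 and Rsad2, 8 members were called, beside 1979 of 18710 genes tested. With all libraries, 16 of 18032 genes were called, so calls over all genes rose as well. The other counts under leave-one-out ranged from 0 to 5, where 5 came without WT TN replicate 24. Endothelial markers were at 179 to 448 CPM in WT RT and 406 to 939 CPM in KO RT, ranges that overlapped. The plasmacytoid list was at 54.4 to 73.8 and 79.4 to 109 CPM without overlap, and the part of either list was not tested. Siglech was at 0.203 to 1.21 CPM in WT RT and 0 to 0.341 CPM in KO RT.

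At TN, no member was called between genotypes in BAT (edgeR, 0 of 40 and 0.0% of all genes, 7 at an unadjusted p under 0.05 beside 5.24% of all genes, DESeq2 0), although 38 estimates were above 0 (49.8% of all genes) with a median of 0.41. Rtp4 had the lowest p, at 5.79 to 11.1 CPM in WT and 13.4 to 17.5 CPM in KO without overlap (0.75 ± 0.24, edgeR adjusted p = 0.657). Gbp6 (0.84, edgeR adjusted p = 0.747) and Cmpk2 (0.60, edgeR adjusted p = 0.85) followed. Without replicate 24 the median was 0.22.

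**Figure D3:**
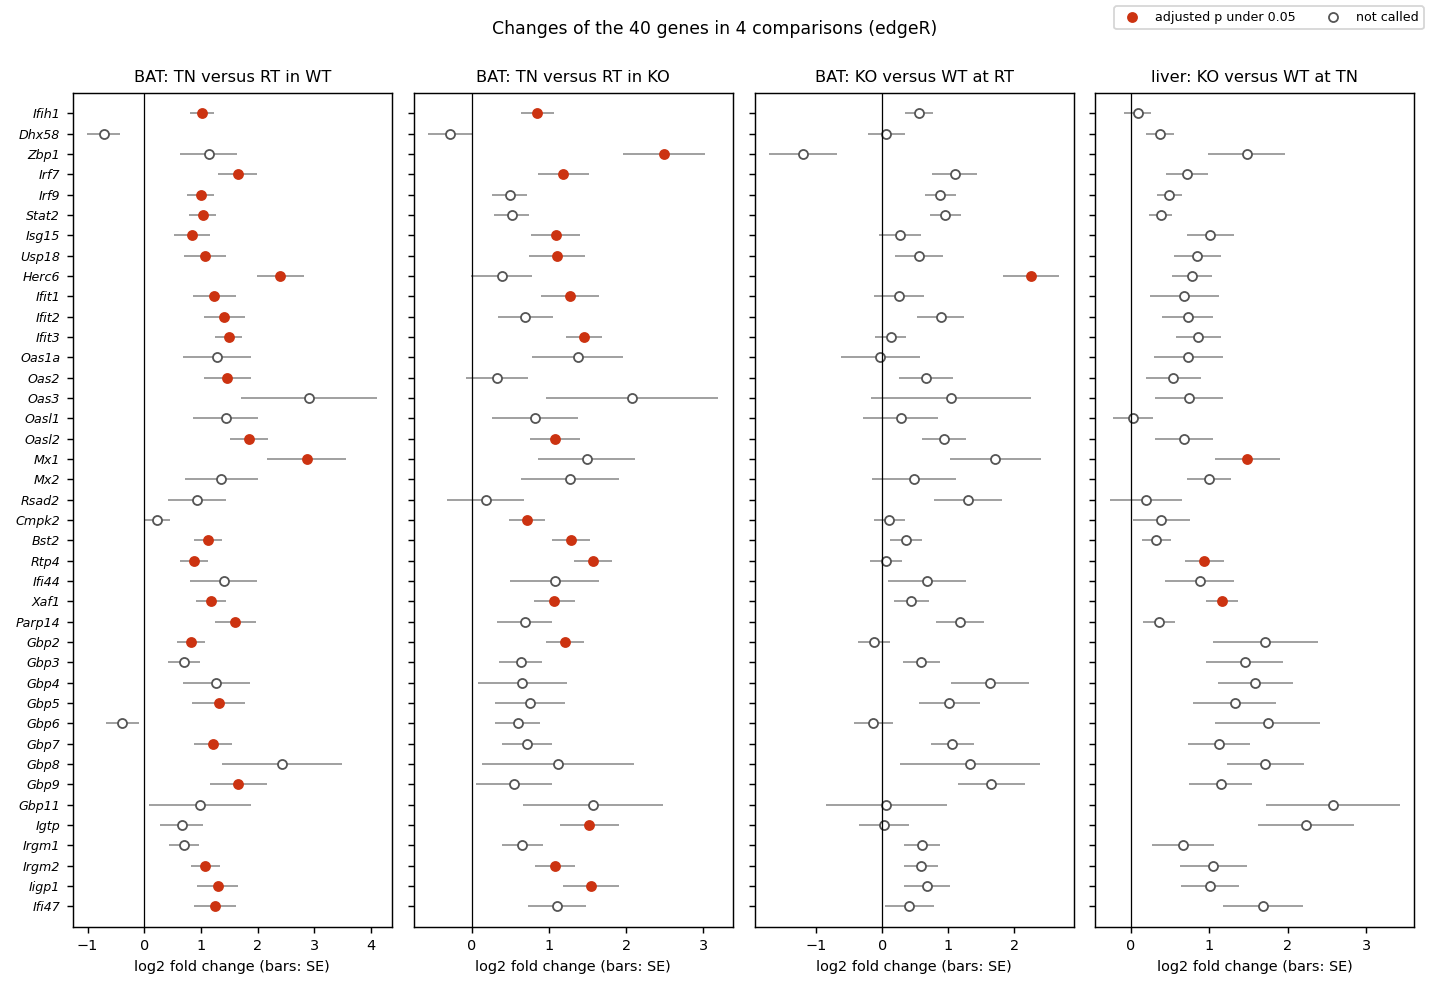
Log2 fold changes with SE of all 40 members in 4 comparisons (BAT TN against RT in WT and in KO, BAT KO against WT at RT, liver KO against WT at TN); red marks an adjusted p under 0.05. Red points number 24, 16, 1 and 3, and all of them lie above 0.

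In liver, the genotype difference at TN was the one comparison with called members. Xaf1, Rtp4 and Mx1 rose in KO and none fell, against 3.18% of all 17594 genes called (1.34% higher, 1.85% lower). All 40 estimates were above 0, as were 54.5% of all genes, with a median of 0.87 beside 0.05. An unadjusted p under 0.05 with a higher level was reached by 26 members and 8.68% of all genes. Groups did not overlap for 8 members (Irf9, Stat2, Isg15, Mx1, Bst2, Xaf1, Gbp11 and Ifi47), against 6.23% of all genes. DESeq2 called 16 members, and 1165 of the 14446 genes for which it gave an adjusted p. Liver values are in the order of replicates 11, 12, 15 and 18 (WT RT), 10, 16, 19 and 9 (KO RT), 1, 24, 6 and 7 (WT TN) and 2, 22, 4 and 5 (KO TN).

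Xaf1 was at 7.18, 6.32, 6.80 and 7.18 CPM in WT TN and 14.6, 12.9, 13.3 and 20.7 CPM in KO TN, 2.24-fold higher (1.16 ± 0.20, edgeR adjusted p = 0.00432). The WT TN libraries lay below every other liver library: WT RT was at 9.66, 9.53, 9.91 and 7.75 CPM and KO RT at 13.2, 10.0, 11.4 and 7.61 CPM. This call held under all 21 alternatives, with adjusted p from 7.977e-06 to 0.021. Rtp4 was at 13.2, 10.1, 15.9 and 16.5 CPM in WT TN and 26.8, 15.2, 26.2 and 38.4 CPM in KO TN, overlapping through KO replicate 22 (0.94 ± 0.25, edgeR adjusted p = 0.0458), and its call was lost under 13 of 21 alternatives (adjusted p 0.0115 to 0.138). Mx1 was at 2.06, 1.56, 1.68 and 2.37 CPM in WT TN and 4.50, 3.68, 4.30 and 8.97 CPM in KO TN, 2.80-fold higher with no overlap (1.48 ± 0.41, edgeR adjusted p = 0.0497). Its call was lost under 15 of 21 (adjusted p 0.00884 to 0.186).

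For the GTPases the high libraries were KO TN replicates 4 and 5. Igtp was at 27.8, 15.5, 20.1 and 22.5 CPM in WT TN and 36.7, 19.8, 96.2 and 251 CPM in KO TN, 4.70-fold by the fit and not called (2.23 ± 0.61, edgeR adjusted p = 0.07). Gbp2 was at 10.1, 4.25, 5.12 and 7.48 CPM in WT TN and 4.93, 6.13, 23.3 and 53.8 CPM in KO TN (1.71 ± 0.67, edgeR adjusted p = 0.196). Gbp4 was at 7.90, 7.78, 6.49 and 4.55 CPM and 7.78, 8.28, 28.5 and 35.5 CPM (1.59 ± 0.48, edgeR adjusted p = 0.084). In all 3, KO replicates 2 and 22 lay within or near the WT range. The abundant Iigp1 followed the same layout, at 330, 185, 235 and 235 CPM in WT TN and 247, 287, 437 and 1012 CPM in KO TN (1.01, edgeR adjusted p = 0.161). Zbp1 was at 3.20 to 11.3 CPM in WT TN and 11.8, 7.61, 22.1 and 42.8 CPM in KO TN.

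Isg15 and Stat2 were higher in all 4 KO TN libraries than in any WT TN library. Isg15 was at 9.84, 5.60, 4.29 and 8.36 CPM in WT TN and 13.4, 9.88, 14.1 and 19.3 CPM in KO TN, and was not called (1.01 ± 0.30, edgeR adjusted p = 0.0653). Stat2 was at 68.3 to 86.8 CPM in WT TN and 91.9, 102, 94.5 and 101 CPM in KO TN. Irf7 (0.72, edgeR adjusted p = 0.173) was at 41.9, 24.7, 26.2 and 29.8 CPM and 40.3, 31.6, 47.8 and 81.4 CPM, Ifit1 (0.68, edgeR adjusted p = 0.475) at 14.2, 6.62, 6.69 and 9.61 CPM and 14.2, 4.53, 12.7 and 27.7 CPM. Oasl2 (0.67, edgeR adjusted p = 0.369) and Herc6 (0.78, edgeR adjusted p = 0.0995) also overlapped, at 6.65 to 13.2 and 6.87 to 28.7 CPM for Oasl2 and 7.32 to 13.0 and 10.7 to 25.6 CPM for Herc6. By role, the median estimate was 1.59 for the GBPs (1.13 to 2.57), 1.05 for the IRGs (0.66 to 2.23), 0.85 for ISG15 and its pathway, 0.72 for the IFITs, 0.67 for the OAS genes, 0.49 for the transcription factors and 0.37 for the sensors. The roles that hold the 3 called members had medians of 1.24 (the 2 MX genes) and 0.39 (the 7 other antiviral effectors).

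Macrophage and lymphocyte markers were high in those 2 libraries. For KO TN replicates 2, 22, 4 and 5, summed macrophage markers were at 167, 199, 347 and 366 CPM, against 113 to 193 CPM in the other 12 livers, and Kupffer cell markers at 248, 219, 450 and 608 CPM against 131 to 303 CPM. T cell markers were at 5.92, 4.21, 12.1 and 27.0 CPM against 2.26 to 5.54 CPM. Their part in the members' levels was not tested. Without replicate 5 the members' median was 0.48 and 36 estimates were above 0. Without it, without replicate 4, without WT RT replicate 11, or without any 1 of the WT TN libraries, 1 member was called, and without replicate 22, 8 were. The share of all genes called in each of these reduced fits is not given.

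**Figure D4:**
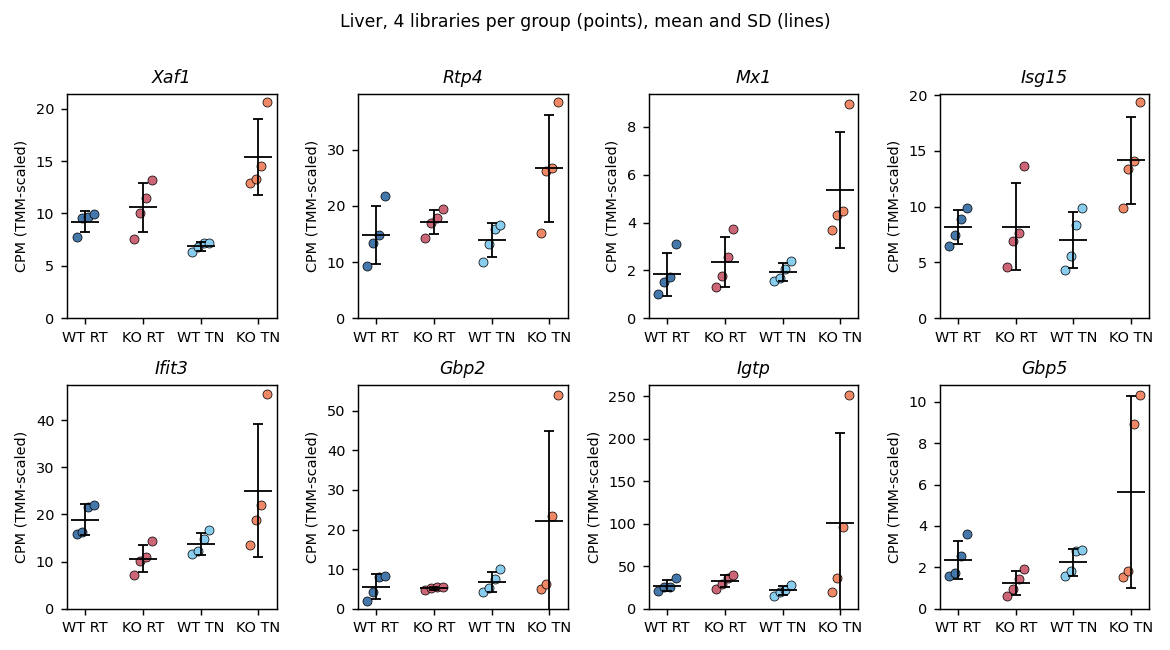
CPM (linear axis) of 8 members in the 16 liver libraries; points are libraries, the bar is the group mean and the whisker its SD. Xaf1 and Isg15 separate KO TN from WT TN, while Igtp, Gbp2 and Gbp5 reach 251, 53.8 and 10.3 CPM in KO TN replicate 5.

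The remaining liver comparisons called no member. At RT, KO against WT had 22 estimates above 0 (51.8% of all genes) and a median of 0.06 (edgeR, 0 called against 0.0853% of all genes, 5 at an unadjusted p under 0.05 beside 10.2% of all genes, all 5 lower in KO, DESeq2 0). The lowest p belonged to Ifit3, at 15.8, 21.5, 22.1 and 16.3 CPM in WT and 14.3, 11.1, 7.23 and 10.0 CPM in KO with no overlap (−0.83 ± 0.29, edgeR adjusted p = 0.296), followed by Oasl1 (−0.66) and Rsad2 (−1.17). Housing in WT gave 13 estimates above 0 (50.9% of all genes) and a median of −0.16 (edgeR, 0 called against 0.0227%, 2 at an unadjusted p under 0.05 beside 7.25%, DESeq2 0), with Mx2 (−0.72), Xaf1 (−0.42) and Gbp11 (−1.68) at the lowest p. Housing in KO gave 40 estimates above 0 (50.6% of all genes) and a median of 0.75 (edgeR, 0 called against 0.114%, 23 at an unadjusted p under 0.05 beside 10.5%, DESeq2 11, with 377 of 14988 genes). There Ifit3 was at 7.23 to 14.3 CPM at RT and 13.6 to 45.6 CPM at TN (1.23 ± 0.29, edgeR adjusted p = 0.0855), followed by Gbp5 (2.18 ± 0.54) and Oasl2 (1.41 ± 0.38). Without KO TN replicate 22, 7 members were called in that comparison, and without replicate 5 the median was 0.42. The share of all genes called without replicate 22 is not given.

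For the interaction of genotype and housing in liver, all 40 estimates were above 0, as were 50.6% of all genes, with a median of 0.98 (edgeR, 0 called and 0.0% of all genes, 15 at an unadjusted p under 0.05 beside 7.33%, DESeq2 1). Ifit3 (1.68 ± 0.41, edgeR adjusted p = 0.419), Xaf1 (0.96 ± 0.28, edgeR adjusted p = 0.457) and Gbp8 (2.32 ± 0.68, edgeR adjusted p = 0.5) had the lowest p. Without KO TN replicate 5 the median was 0.63 and 38 estimates were above 0.

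In eWAT, Gbp11 was the only member called in any comparison within the tissue, and it rose in KO at RT (4.08-fold, 2.03 ± 0.50, edgeR adjusted p = 0.0268), against 4.34% of all 18933 genes (1.2% higher, 3.13% lower). Over the members, 28 estimates were above 0 (49.7% of all genes) with a median of 0.16. Gbp11 was at 1.20, 1.75, 1.59 and 1.82 CPM in WT RT (replicates 12, 13, 15 and 18) and 2.15, 12.8, 7.79 and 3.25 CPM in KO RT (replicates 10, 16, 19 and 9). The groups did not overlap, and the KO libraries were further apart than the WT ones. Without KO RT replicate 16 the estimate was 1.49 (edgeR adjusted p = 0.0843), and leaving out KO RT replicate 19 or any 1 WT RT library also ended the call. Without replicate 16, 3 other members were called lower in KO (Zbp1, Oas1a and Oas2), and the share of all genes called in that fit is not given. Replicate 16 also had 511 CPM of endothelial markers, the top of a KO RT range of 207 to 511 CPM, with replicate 9 at 460 CPM. Its hepatocyte (6092 CPM) and T cell (14.0 CPM) marker sums were also the top of KO RT. Its macrophage sum of 574 CPM was below the 758 CPM of replicate 10. On the WT RT side, replicate 18 held 929 CPM of epididymis markers, against 0.109 to 9.94 CPM in the other WT RT libraries. It was the highest of WT RT for 19 members (26.7% of all tested genes). The part of these tissues and cell types was not tested. Oas1a (−0.97 ± 0.29, edgeR adjusted p = 0.0612) was lower in every KO RT library (1.95 to 3.49 CPM) than in any WT RT library (3.51 to 5.81 CPM) without being called.

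Housing in WT eWAT called none (edgeR, 0 called and 0.0% of all genes, 10 at an unadjusted p under 0.05 beside 6.99%, DESeq2 0). The members' median was 0.31 beside −0.01 for all genes, 35 estimates were above 0 (47.8% of all genes), and 7 members had TN above RT without overlap (2.31% of all genes). Rtp4 was at 11.5, 10.1, 11.5 and 11.7 CPM at RT and 26.2, 15.5, 15.3 and 18.2 CPM at TN (0.75 ± 0.21, edgeR adjusted p = 0.349), for replicates 23, 6, 7 and 8 at TN. Oasl2 was at 13.2, 10.1, 14.5 and 12.3 CPM and 26.1, 15.1, 19.0 and 16.7 CPM (0.62 ± 0.21, edgeR adjusted p = 0.474), and Isg15 at 5.17, 4.19, 3.82 and 5.64 CPM and 9.78, 5.89, 6.51 and 10.6 CPM (0.80 ± 0.27, edgeR adjusted p = 0.486). The OAS genes had a median of 0.73, and the GBPs −0.01. Summed macrophage markers were at 699 to 1040 CPM in WT RT and 1083 to 1800 CPM in WT TN, and their part was not tested.

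The other eWAT comparisons also called none of the 40. KO against WT at TN had 16 estimates above 0 (51.2% of all genes) and a median of −0.03 (edgeR, 0 called against 0.586% of all genes, 5 at an unadjusted p under 0.05 beside 13.7%, DESeq2 0), with Rtp4 (−0.56 ± 0.21, edgeR adjusted p = 0.23), Gbp6 (−0.66) and Zbp1 (−0.67) at the lowest p. Housing in KO had 27 estimates above 0 (52.4% of all genes) and a median of 0.11 (edgeR, 0 called against 1.74%, 6 at an unadjusted p under 0.05 beside 17.5%, DESeq2 2), led by Oas1a (1.09 ± 0.29, edgeR adjusted p = 0.0585), Ifit2 (0.72) and Gbp11 (−1.37). Without KO RT replicate 16, Ifit2, Oas1a, Oas2 and Parp14 were called higher there, and 1 member was called without WT TN replicate 23. Shares of all genes called in those fits are not given. The interaction had 14 estimates above 0 (52.9% of all genes) and a median of −0.17 (edgeR, 0 called and 0.0%, 4 at an unadjusted p under 0.05 beside 7.6%, DESeq2 0), led by Rtp4 (−0.72), Bst2 (−0.61) and Isg15 (−0.84). Members called in BAT gave these ranges here: Gbp2 was at 62.0 to 95.1 CPM in WT RT and 67.9 to 96.4 CPM in KO TN, Irf7 at 12.3 to 17.2 and 11.8 to 29.9 CPM, Ifit1 at 6.61 to 10.1 and 9.04 to 14.9 CPM, and Herc6 at 4.50 to 6.74 and 4.56 to 7.34 CPM. Igtp, Iigp1 and the uncalled Gbp4 were at 10.8 to 15.1, 14.5 to 27.7 and 6.96 to 30.1 CPM in WT RT, and at 11.2 to 27.0, 16.4 to 43.8 and 15.9 to 47.6 CPM in KO TN.

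**Figure D5:**
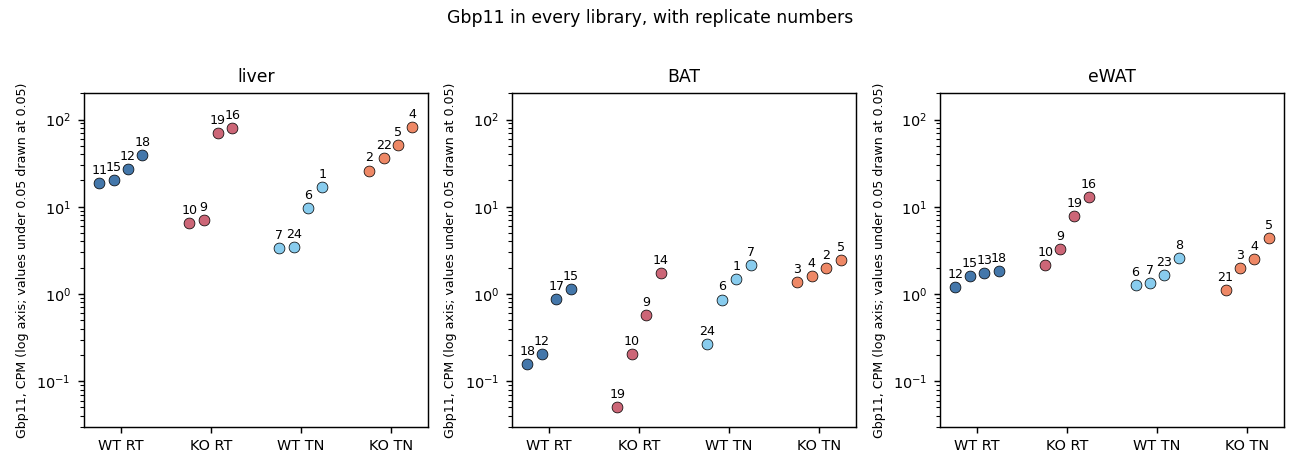
CPM of Gbp11 (log axis) in all 48 libraries by tissue and group, with replicate numbers beside the points. Liver ranges from 3.37 to 81.6 CPM, and in eWAT KO RT replicates 16 and 19 stand at 12.8 and 7.79 CPM.

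Gbp11 varied widely within liver groups. It was at 18.9, 26.9, 20.1 and 39.4 CPM in WT RT, 6.55, 80.8, 70.0 and 7.06 CPM in KO RT, 16.7, 3.41, 9.54 and 3.37 CPM in WT TN and 26.0, 36.3, 81.6 and 51.1 CPM in KO TN. KO RT thus held 2 libraries near 7 CPM (replicates 10 and 9) and 2 at or above 70.0 CPM (replicates 16 and 19). The KO RT eWAT libraries numbered 16 and 19 were also the highest of their group, at 12.8 and 7.79 CPM. Those numbered 10 and 9 were at 2.15 and 3.25 CPM. Whether equal numbers mark 1 mouse is not stated. Its difference between genotypes at TN was the largest estimate of the 40 in liver and was not called (2.57 ± 0.85, edgeR adjusted p = 0.133). In BAT it was at 0 to 2.47 CPM and no comparison called it.

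Levels also differed between tissues. In the fit of all 48 libraries, 36 members differed between BAT and liver (8 higher in BAT, 28 lower, against 68.6% of all 21910 genes, 37.0% higher and 31.6% lower), 31 between eWAT and liver (6 higher in eWAT, 25 lower, against 73.8%, 38.3% higher and 35.5% lower) and 23 between eWAT and BAT (17 higher in eWAT, 6 lower, against 60.3%, 31.1% higher and 29.2% lower). The totals for eWAT against liver and for eWAT against BAT were near the shares of all genes. Their directions were less evenly split than those of all genes. By mean CPM over the 16 libraries of a tissue, 24 members were highest in liver, 10 in eWAT and 6 in BAT. Those means were scaled within each tissue alone, so they share no scale across tissues and can differ from the fit. Xaf1, for example, had a higher mean in eWAT than in liver (12.8 and 10.5 CPM) but an uncalled fit estimate of −0.19. Among members well above both fats in liver were Gbp11 (log2 −4.86 in BAT, −3.84 in eWAT), Gbp8 (−4.36 and −2.84), Iigp1 (−3.71 and −3.99), Oasl1 (−3.55 and −3.01), Mx2 (−2.93 and −3.09) and Bst2 (−2.76 and −2.66). Oas3 (−3.42) and Zbp1 (−2.79) were low in BAT and less so in eWAT (−1.55 and −0.55). Gbp2 and Gbp5 ran the other way, with Gbp2 higher by 2.18 in BAT and 2.85 in eWAT and Gbp5 by 2.19 and 1.68. Gbp9 (1.59 and 0.52), Gbp3 (0.99 and 0.46) and Ifit2 (0.46 and 1.05) were also called higher in both fats. Isg15 and Herc6 were lower in both fats than in liver and were not called between the fats (eWAT against BAT 0.00 and 0.26, edgeR adjusted p = 1.00 and 0.183). Oasl2 was not called between liver and BAT or eWAT (−0.29 and 0.28).

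Per kilobase of exon, Bst2 was first in all 3 tissues, at a mean of 173 CPM per kb in liver, 30.7 in BAT and 39.96 in eWAT. These levels were scaled within each tissue, so they give orders within a tissue and not differences between tissues. In liver Iigp1 (54.4 CPM per kb), Igtp (22.5), Stat2 (13.7) and Irgm2 (13.4) followed. In BAT Gbp2 (16.8), Igtp (9.32), Gbp3 (9.06) and Ifit3 (7.00) followed, and in eWAT Gbp2 (33.7), Ifit3 (20.3), Igtp (8.30) and Gbp3 (8.12). Oas3 was last in every tissue, at 0.301, 0.0421 and 0.167 CPM per kb. Neighbours in these orders, such as Igtp and Gbp3 in either fat, overlapped across libraries.

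The effects of housing and genotype were also compared between tissues, with an F test in the fit of all 48 libraries. For housing in WT, 13 members differed between tissues, against 15.0% of all genes: Ifit3 (edgeR adjusted p = 0.000448), Herc6 (0.000613), Xaf1 (0.00139), Ifih1 (0.00265), Parp14, Irf9, Mx1, Irf7, Bst2, Stat2, Gbp9, Mx2 and Gbp7. Xaf1 illustrates the pattern, with 1.18 ± 0.27 in BAT and −0.42 ± 0.20 in liver. Leaving out the libraries numbered 6 or 7 in WT TN gave 8 such members. For housing in KO, Bst2, Rtp4 and Ifit3 differed, against 4.06%, and 1 did without KO TN replicate 4 and 6 without KO TN replicate 22. For genotype, Herc6 differed at RT (edgeR adjusted p = 0.0139, against 2.06% of all genes), with 2.25 in BAT and −0.05 in eWAT. Rtp4 differed at TN (edgeR adjusted p = 0.0311, against 0.904%), with 0.94 in liver, 0.75 in BAT and −0.56 in eWAT. At RT, no member was called without KO RT replicate 9 or 10 or WT RT replicate 15 or 18, 2 were without KO RT replicate 14 or 16, KO TN replicate 22 or WT RT replicate 11, 4 without WT TN replicate 24 and 5 without WT RT replicate 12. At TN, no member was called without KO TN replicate 3, 4, 5 or 21 or WT TN replicate 6, 7 or 23, and 4 were without KO TN replicate 2 or 22. All-gene shares for the fits with a replicate left out are not given.

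Other genes of the interferon pathway were read from a list of 114 (ligands and receptors, kinases and factors, sensors, other induced genes, and class I antigen presentation), of which 113 matched and 104 to 106 were tested per tissue. That list was chosen with earlier results of these data known, so its counts beside all genes are descriptions and not independent support. In BAT, TN against RT called 55 of 104 higher and 4 lower in WT (15.9% and 16.7% of all genes) and 35 higher and 2 lower in KO (6.64% and 8.52%). The receptor subunit Ifngr1 rose in both (1.16 and 1.03), as did the feedback inhibitor Socs3 (2.06 and 2.47), the factor Irf8 (1.89 and 1.62), the sensor Ddx58, which encodes RIG-I (0.94 and 0.85), the chemokine Cxcl10 (1.86 and 3.18) and the class I genes H2-K1 (1.07 and 1.04) and B2m (0.88 and 1.49). Ifi27 (−1.33 and −0.87) and the proteasome activator subunit Psme2 (−0.87 and −0.64) fell in both. Irf1, a factor induced by type II interferon, was not called in BAT (0.62 in WT and 0.40 in KO).

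In liver, KO against WT at TN called 14 of 106 on the list higher and none lower, against 1.34% and 1.85% of all genes. These were the factors Irf1 (1.04 ± 0.23, edgeR adjusted p = 0.0192), Irf5, Irf8 (1.12) and the class I activator Nlrc5 (0.97). With them were Ifi27l2a (1.47), Ifi209 (1.64), Trim34a, Trim30a, Ifi35, Uba7 and Trafd1. The rest were the class I antigen presentation genes Psme2 (1.16), Psmb9 (1.17) and H2-Q4. Irf1 was at 29.9 to 33.5 CPM in WT TN and 33.6 to 103 CPM in KO TN, with no overlap. Liver TN against RT in KO called Irf8 higher (1.66, edgeR adjusted p = 0.0308), against 0.114% of all genes called. In eWAT, KO against WT called 5 of 105 lower at RT, a share near the 4.34% of all genes called there (3.13% lower), and 4 lower at TN (H2-K1, H2-D1, Psmb10 and Tapbp), against 0.586% of all genes. None was called higher. The interferon genes whose levels were read, Ifng, Ifnb1 and Ifna4, were scarcely counted. Ifng was at 0 in most libraries and reached 0.444 CPM, Ifnb1 was counted in 1 liver library, at 0.212 CPM, and Ifna4 in none. Levels of the other interferon genes were not read.

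The genes whose levels most resembled the members' mean within each tissue were found by Pearson's r of deviations from group means over 16 libraries, which share depth and cell makeup. In liver the genes reported here were the class II genes Cd74 (0.883) and H2-Aa (0.882), Lpcat2 (0.882) and the myeloid factor gene Spi1 (0.881). BAT gave Gm11131 (0.931), Atoh8 (0.915), Sigirr (0.914), Zfp948 (0.905) and Gpr182 (0.898), and eWAT gave Naa60 (0.860), Zfp112 (0.854), Snai1 (0.85), Smim10l2a (0.848) and Slco2b1 (0.843).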

How the data were processed

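The files hold raw gene counts, as deposited by the authors. The submitters' processing notes name fastp, STAR 2.6.1d, featureCounts 1.5.0-p3 and GRCm38/mm10; annotation and strand setting are not given in the sources used here, so overlapping antisense genes cannot be separated. Symbols were matched for 52073 of 56748 identifiers. Counts of each tissue (16 libraries, 4 groups) were fitted together with edgeR 4.0.16 in R 4.3.3 (library sizes scaled by TMM, genes kept by filterByExpr at min.count 10, a robust quasi-likelihood fit, p-values adjusted by Benjamini-Hochberg over every gene tested), and all 48 libraries were fitted for contrasts between tissues. The scripts were tested on simulated data. CPM values are TMM-scaled within each tissue, and lengths are union exons of GENCODE. The members and gene lists were chosen with earlier results of these data known.

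All 40 members were accounted for. Called members were named up to 8 per direction, the 3 of lowest p where none was called, and 9 members (Isg15, Irf7, Ifit1, Oasl2, Herc6, Gbp2, Gbp4, Igtp and Iigp1) throughout, beside Irf1, Ifng and liver Agt; further members named as examples were chosen after their values were seen. Alternatives were RLE scaling, no filter, a filter of 1 CPM in 4 libraries, DESeq2 1.42.0, fits of only the 8 libraries compared, each replicate left out and, for tissues, a replicate block. Leaving out BAT libraries with over 1000 CPM of skeletal muscle markers was chosen after seeing the data. Intervals between replicates cover biological and technical spread together. A few genes that this rule names are not reported here.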

Additional observations from a re-analysis of the deposited data

Results flagged for a closer look

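Single libraries stood apart in 10 of the 108 groups of 4 examined for the 9 members followed throughout, where chance alone would flag about 1 in 20. In liver these were Oasl2 in WT RT replicate 12 (3.07 CPM, the others 7.22 to 8.05), Gbp2 in KO RT replicate 16 (4.70 CPM, the others 5.27 to 5.39) and Gbp4 in KO RT replicate 9 (2.40 CPM, the others 8.85 to 9.17). In BAT they were Isg15 in KO TN replicate 5 (9.32 CPM, the others 6.50 to 6.92), Ifit1 in KO TN replicate 2 (12.5 CPM, the others 9.54 to 10.0), and Oasl2 (4.53 CPM, the others 13.5 to 15.2) and Gbp4 (5.52 CPM, the others 30.7 to 34.4) in WT TN replicate 24. In eWAT they were Herc6 (9.95 CPM, the others 3.90 to 4.37) and Iigp1 (56.4 CPM, the others 18.2 to 24.1) in KO RT replicate 16, and Iigp1 in WT TN replicate 8 (52.2 CPM, the others 18.1 to 23.4).

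The housing effect in WT differed between the 3 tissues, by an F test of the difference in edgeR, for Ifit3 (adjusted p = 0.000448), Herc6 (0.000613), Xaf1 (0.00139), Ifih1 (0.00265), Parp14 (0.00577), Irf9 (0.00587), Mx1 (0.00781), Irf7 (0.0101), Bst2 (0.0114), Stat2 (0.0162), Gbp9 (0.0302), Mx2 (0.0416) and Gbp7 (0.0424). The housing effect in KO differed for Bst2 (adjusted p = 0.00665), Rtp4 (0.0147) and Ifit3 (0.0222). The genotype effect differed for Herc6 at RT (adjusted p = 0.0139) and for Rtp4 at TN (adjusted p = 0.0311).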

How the results depend on the processing

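For the members named in each comparison by the rule on named genes, and not for all 40, 1011 log2 changes under an alternative kept their direction and side of the threshold, 60 lost a call, 14 gained one and none changed sign while called. Counts of called members that moved by over 1.5 times were as follows, and the cause was not tested. They are not set beside the share of all genes called under the same alternative, so they are not results about the members alone. For DESeq2, all-gene counts are given above only for liver KO against WT at TN and for liver housing in KO. DESeq2 called 16 in place of 3 for liver KO against WT at TN, 11 in place of 0 for liver housing in KO, 1 in place of 0 for the liver interaction, 7 in place of 1 for BAT KO against WT at RT, 3 in place of 1 for eWAT KO against WT at RT and 2 in place of 0 for eWAT housing in KO. Fits of only the 8 libraries compared called 5 for liver KO against WT at TN and 0 for BAT KO against WT at RT. For that BAT comparison, RLE scaling and the filter of 1 CPM also called 0, and leaving out the libraries with over 1000 CPM of muscle markers called 5; for BAT housing in KO the same exclusion called 10 in place of 16. No filter called 1 for liver housing in KO, and RLE scaling 2 in place of 1 for the difference between tissues of the genotype effect at RT.

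Leaving out each replicate in turn gave 1 to 8 for liver KO against WT at TN, 0 to 7 for liver housing in KO, 0 to 8 for BAT KO against WT at RT, 20 to 31 for BAT housing in WT (1 of them, Dhx58, lower without WT RT replicate 17 or WT TN replicate 7), 10 to 23 for BAT housing in KO, 0 to 3 for eWAT KO against WT at RT and 0 to 4 for eWAT housing in KO. For the differences between tissues it gave 0 to 5 (genotype at RT), 0 to 4 (genotype at TN), 8 to 16 (housing in WT) and 1 to 6 (housing in KO), and for the tissue contrasts 29 to 31 (eWAT against liver), 36 to 37 (BAT against liver) and 21 to 25 (eWAT against BAT). The share of all genes called can move with the library left out and is not given beside these counts, so they are not results about the members alone.

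Groups within a tissue share no replicate numbers, so a block was possible across tissues alone. With the replicate block the tissue contrasts called 29, 35 and 22 members and the differences between tissues 1, 1, 15 and 4. Whether equal numbers mark 1 mouse is not stated, and deviations of same-numbered libraries correlated at −0.0604 to 0.0621 between liver and BAT, −0.0598 to 0.065 between liver and eWAT and −0.3361 to 0.1449 between BAT and eWAT, with 5 of 13, 7 of 11 and 1 of 11 pairs closest to their own number. A DESeq2 test of the differences between tissues was not run. Depth limits Oas3 in BAT (at most 0.689 CPM), Mx1 in BAT WT RT (at most 0.240 CPM) and the interferon genes Ifng, Ifnb1 and Ifna4.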
